A study of Mus musculus with 8 samples.

Results

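Cadherins and protocadherins were read on whole-transcript arrays of mouse cerebellar precursors and medulloblastomas. The members are the genes whose symbol is Cdh plus a number or begins with Pcdh, without Cdh5, taken from array rows that carry exactly 1 gene symbol. They number 49 of the 14351 genes with such a row: 18 cadherins, 9 protocadherins outside the gene clusters and 22 genes of the beta protocadherin cluster. Each member had 1 row, so no choice between rows was needed. Members of the alpha and gamma clusters are not analysed here.

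The 8 arrays hold 3 groups. Gli1-FLAG granule neuron precursors (GNPs, 2 samples) came at postnatal day 8 (P8) from crosses of RosaGli1-FLAG c/c mice, whose Rosa locus carries conditional FLAG-tagged Gli1, with Math1-Cre mice, whose Cre acts in the granule lineage. The number of Rosa alleles in these litters is not stated. Ptc+/- GNPs (2 samples) came at the same age from mice with 1 targeted allele of the hedgehog receptor gene and no Gli1-FLAG named. Medulloblastomas (4 samples) came from adult mice with all of these alterations (RosaGli1-FLAG c/c;Math1-Cre;Ptc+/-). Age, preparation (purified precursors or isolated tumour) and genotype thus change together between tumours and each GNP group, and their parts cannot be told apart. No group lacks a hedgehog-activating alteration, and the labels do not say how many animals went into a sample. The labels call the replicates biological without naming separate animals. The p-values set each difference of group means against the variation among these samples, pooled over the 3 groups. That variation may be technical, and with 2 arrays in each GNP group most of its estimate comes from the tumours.

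Classical cadherins are calcium-dependent adhesion proteins that bind the same or a related cadherin on a neighbouring cell. Their cytoplasmic tail holds beta-catenin and p120-catenin, and alpha-catenin couples the complex to actin. Type I members (such as N-cadherin, the product of Cdh2) give strong adhesion, whereas type II members are expressed in mosaics that part neuronal groups and match axons to targets. Protocadherins lack the catenin-binding tail. The clustered ones, each with its own promoter, are used in different combinations by single neurons, and the delta protocadherins act in cell sorting and axon growth.

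Values are log2(intensity + 1) after quantile normalization of the 8 arrays, whose deposited median intensities ran from 109 to 310. Levels of different genes are not compared, because their probes differ. On the 3 arrays with little Y-linked signal, Eif2s3y and Kdm5d read 4.12 to 4.55. This range is used as a rough guide to the level of background, which may differ for the probes of other genes. The GNP label was checked against 11 measured GNP genes, none at 0 on any array, of which 4 rose and 5 fell in tumours against Ptc+/- GNPs. The precursor-defining Atoh1 read 9.43 and 9.41 in Ptc+/- GNPs, 9.17 and 9.03 on the Gli1-FLAG arrays and 10.84 to 11.99 in tumours. In a bulk sample, fewer cells of a type and less RNA per cell cannot be told apart.

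The series' design compares tumours with Ptc+/- GNPs. In that comparison Cdh20, Cdh22, Cdh4 and Cdh15 rose in tumours, and Cdh10, Pcdh8, Pcdh10, Pcdh20, Pcdhb22, Cdh6, Cdh2 and Cdh8 fell. These are 12 of 49 members past an adjusted p of 0.05 in limma's fit (24.5%), 4 up and 8 down, where 16.5% of all 16317 rows passed (7.54% up and 8.92% down). The calls lay mostly among classical cadherins, with 8 of 13, against 1 of 22 in the beta cluster. The members' median log2 fold change was -0.12, beside 0.01 for all rows. With each array centred on its median instead, the split was 7 up and 6 down, the members' median was 0.08 and that of all rows 0.13. All 12 called members had their 4 tumours beyond all 4 GNP arrays; of the 49 members 15 did so (6 above, 12.2%, and 9 below, 18.4%), as did 31.2% of all rows (14.7% above and 16.5% below). Without Ptc+/- GNP replicate 1, 2 members and 128 of all rows passed, against 12 and 2687 with all arrays, and without replicate 2 these counts were 3 and 460. Without Gli1-FLAG array 1 or 2, 6 members passed in either case, with 1231 and 1227 rows. Without medulloblastoma 1 the counts were 8 and 1751, and with only the arrays of the groups compared 6 and 1197. The members and all rows thus lost calls in the same settings.

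**Figure D1:**
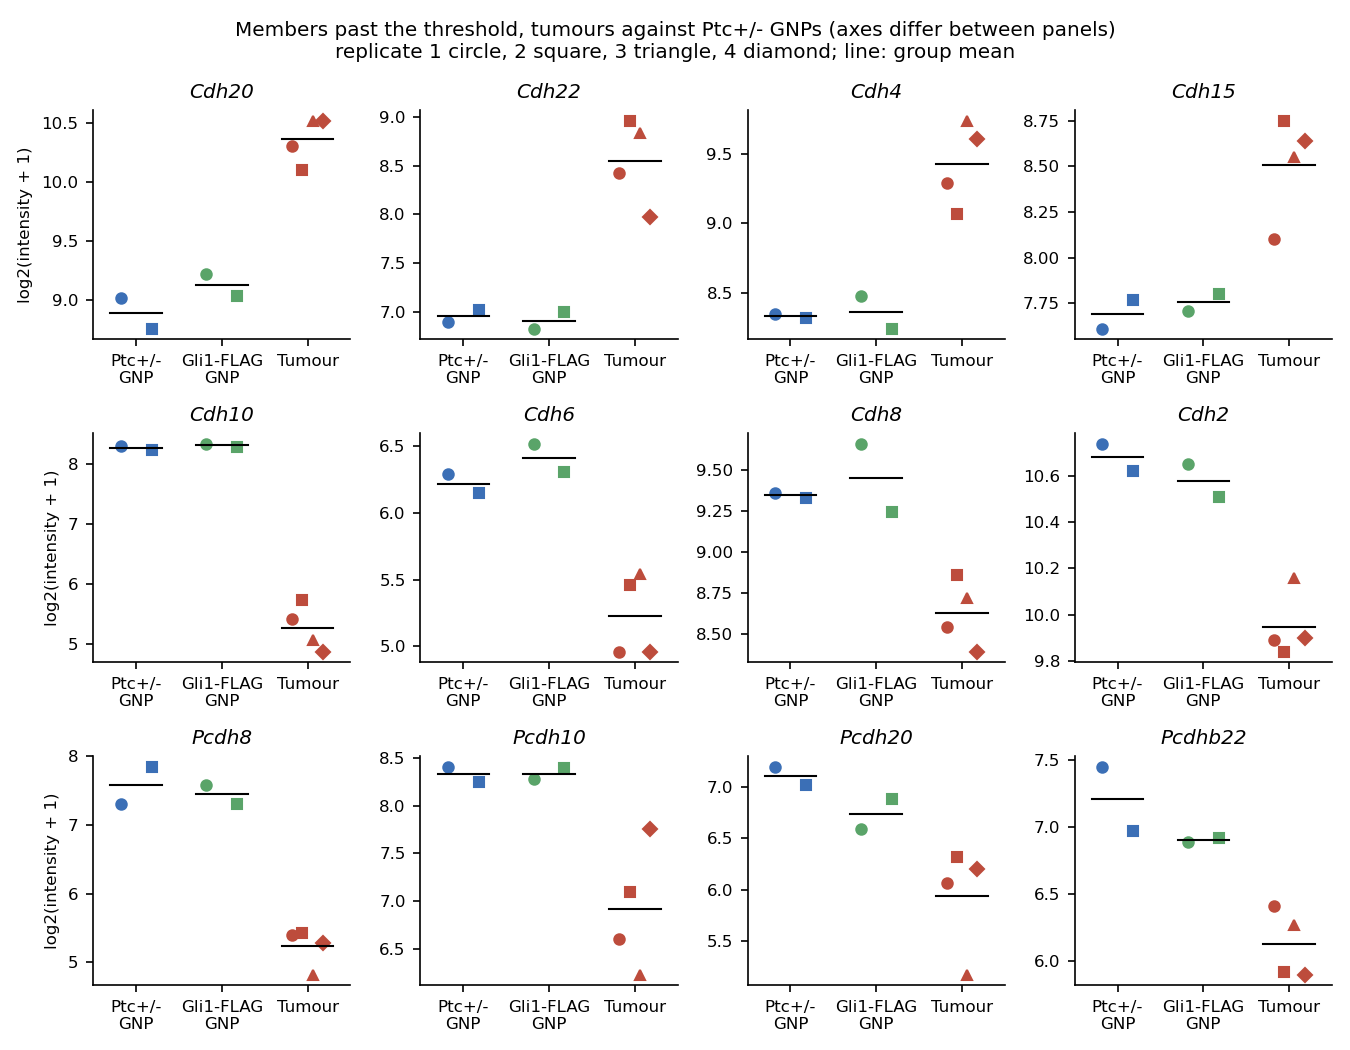
Normalized log2(intensity + 1) of the 12 members that passed in tumours against Ptc+/- GNPs, 1 point per array with a line at each group's mean; the vertical axes differ between panels and do not start at 0. The 4 tumours lie above all GNP arrays for Cdh20, Cdh22, Cdh4 and Cdh15 and below them for the other 8, and both GNP groups lie close together.

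Cdh10 and Pcdh8 fell most among the members, and Cdh22 and Cdh20 rose most. Their promoter windows are shown here because these members carry the pattern and their sequences differ in make-up. RefSeq windows of build GRCm38.p6, from 250 bases before to 50 bases after a transcription start, were found for 17 of 49 members and 9 of the 12 called ones. The other 32 members, among them Cdh2, Cdh4 and all 22 beta cluster genes, are not used here, so the counts of CpG and motifs leave them out. Each is written 5′ to 3′ on the strand of its gene, with CpG dinucleotides in capitals.
Cdh20 promoter, chr1:104768270-104768569, plus strand: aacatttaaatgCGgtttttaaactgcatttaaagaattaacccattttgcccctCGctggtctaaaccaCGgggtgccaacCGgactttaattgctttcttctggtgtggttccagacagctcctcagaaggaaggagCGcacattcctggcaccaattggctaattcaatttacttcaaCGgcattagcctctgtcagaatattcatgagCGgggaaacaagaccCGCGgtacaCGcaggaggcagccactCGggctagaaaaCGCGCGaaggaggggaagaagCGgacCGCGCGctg
Cdh22 promoter, chr2:165234688-165234987, minus strand: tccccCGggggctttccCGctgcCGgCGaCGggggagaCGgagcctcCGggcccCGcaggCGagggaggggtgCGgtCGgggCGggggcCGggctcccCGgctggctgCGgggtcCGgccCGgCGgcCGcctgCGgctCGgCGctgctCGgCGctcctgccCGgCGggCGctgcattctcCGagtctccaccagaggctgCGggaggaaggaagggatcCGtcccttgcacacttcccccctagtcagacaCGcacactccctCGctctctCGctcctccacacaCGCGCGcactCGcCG
Cdh10 promoter, chr15:18820079-18820378, plus strand: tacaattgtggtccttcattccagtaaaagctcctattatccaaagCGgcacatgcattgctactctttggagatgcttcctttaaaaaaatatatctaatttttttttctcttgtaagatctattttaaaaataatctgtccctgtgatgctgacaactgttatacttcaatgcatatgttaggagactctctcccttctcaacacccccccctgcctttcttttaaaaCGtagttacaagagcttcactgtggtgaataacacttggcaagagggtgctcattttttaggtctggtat
Pcdh8 promoter, chr14:79771263-79771562, minus strand: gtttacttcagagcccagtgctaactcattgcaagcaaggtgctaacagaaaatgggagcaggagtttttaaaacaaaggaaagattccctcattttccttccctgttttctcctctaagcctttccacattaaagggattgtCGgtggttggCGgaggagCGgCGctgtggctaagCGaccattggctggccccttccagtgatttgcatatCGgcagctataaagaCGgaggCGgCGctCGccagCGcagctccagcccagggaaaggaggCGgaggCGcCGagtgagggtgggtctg

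The Cdh22 window held 38 CpG dinucleotides and 76.3% G or C, and that of Cdh20 held 18 and 50.7%. The Cdh10 window held 2 CpG and 37.7% G or C, and that of Pcdh8 held 14 and 54.3%. The median over 32851 windows of this length was 7 CpG and 52.7%. High CpG content did not go with one direction, since Pcdh10 and Cdh8, which fell, held 24 and 21, and Cdh15, which rose, held 7. On both strands, the Gli site GACCACCCA was in 0 of the 17 members' windows and in 0.253% of all windows. The E-box CACCTG, a motif that Snail and Zeb repressors bind, was in 3 of 17 members and 20.2% of all windows. Another E-box, CAGCTG, was in 2 members and 16.3% of all windows. None of these 3 motifs was in a window of the 9 called members. That says only that these letters are not in these windows.

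Type II cadherins gave the widest changes in both directions: of 8 measured, 2 rose, 3 fell and 3 did not pass. Cdh10 (transcript cluster 6829068), a type II cadherin of neurons, read 8.30 and 8.23 in Ptc+/- GNPs and 8.34 and 8.28 on the Gli1-FLAG arrays. In the tumours it read 5.41, 5.73, 5.06 and 4.87. All 4 precursor arrays lay within a narrow band and every tumour was far below it, close to background. The difference from Ptc+/- GNPs was -2.99 ± 0.24 (log2 fold change ± SE; 7.97-fold lower; adjusted p = 0.0014). It passed on leaving out each of the 8 arrays in turn, with a highest adjusted p of 0.03.

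Cdh22 (transcript cluster 6892987), which encodes a cadherin of pituitary and brain, read 6.90 and 7.02 in Ptc+/- GNPs and 6.83 and 7.0 on the Gli1-FLAG arrays. The tumours read 8.42, 8.96, 8.83 and 7.97, all above every precursor array, with tumour 4 nearest to them. The rise was 1.59 ± 0.28 (3-fold; adjusted p = 0.0134). It did not pass without Ptc+/- GNP replicate 1 (adjusted p = 0.12) or replicate 2 (0.0735).

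Cdh20 (transcript cluster 6752026), a type II cadherin whose older mouse symbol was Cdh7, read 9.02 and 8.76 in Ptc+/- GNPs and 9.22 and 9.04 on the Gli1-FLAG arrays. The tumours read 10.31, 10.10, 10.52 and 10.52. Groups did not overlap, and the tumours varied little among themselves (SD 0.20, n = 4). The rise was 1.48 ± 0.18 (2.78-fold; adjusted p = 0.0054), and it missed the threshold narrowly without Ptc+/- GNP replicate 1 (adjusted p = 0.05).

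Cdh6, known in mouse retina for matching axons to their targets, read 6.29 and 6.15 in Ptc+/- GNPs, 6.52 and 6.31 on the Gli1-FLAG arrays and 4.96, 5.46, 5.54 and 4.96 in tumours. The fall was 0.99 on the log2 scale (SE 0.22; adjusted p = 0.0252). With arrays centred on their medians, the call was lost (adjusted p = 0.119). Cdh8, a type II cadherin of neuronal subsets, read 9.36 and 9.33, then 9.66 and 9.24, and 8.54, 8.86, 8.72 and 8.39 in tumours. It fell by 0.72 (SE 0.19; adjusted p = 0.0413). Cdh6 and Cdh8 both lost their calls on leaving out either Ptc+/- array (adjusted p = 0.102 to 0.216), either Gli1-FLAG array or medulloblastoma 1, and Cdh8 also without medulloblastoma 3 (0.0519) or 4 (0.0567).

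The other type II members did not pass. Cdh11, a cadherin of mesenchymal cells, read 8.52 and 7.87 in Ptc+/- GNPs, 7.90 and 8.04 on the Gli1-FLAG arrays and 7.14, 7.24, 6.67 and 8.01 in tumours, a difference of -0.93 ± 0.36 (adjusted p = 0.12). It was high on Ptc+/- GNP replicate 1 and on tumour 4. Without medulloblastoma 4 it passed (-1.20; adjusted p = 0.0307). The summed intensity of 9 fibroblast and meningeal markers was 2555 and 967 in Ptc+/- GNPs 1 and 2, 1665 and 1674 on the Gli1-FLAG arrays and 1840, 1781, 2478 and 2084 in tumours 1 to 4. It was higher on the Ptc+/- array with more Cdh11, but among tumours it was highest in tumour 3, where Cdh11 was lowest. Of these 9 markers 1 rose (Pdgfra), 0 fell and none was at 0. Their part in the Cdh11 values was not tested. Cdh7 differed by 0.26 ± 0.61 and Cdh12 by -0.26 ± 0.18.

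Among the 5 type I cadherins, Cdh4 and Cdh15 rose, Cdh2 fell, and Cdh1 and Cdh3 did not pass. Cdh2 (transcript cluster 6863645), the N-cadherin gene and the main classical cadherin of neural precursors, read 10.74 and 10.62 in Ptc+/- GNPs and 10.65 and 10.51 on the Gli1-FLAG arrays. Tumours read 9.89, 9.84, 10.16 and 9.90. The precursors formed 1 band and the tumours another below it. The difference was -0.73 ± 0.15, or 1.66-fold lower (adjusted p = 0.0209). The call was lost without either Ptc+/- array (adjusted p = 0.16 and 0.0889), without either Gli1-FLAG array (0.0526 and 0.053) and when only arrays of tumours and Ptc+/- GNPs were fitted (0.0527).

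Cdh4 (transcript cluster 6884101) encodes R-cadherin, which can also bind N-cadherin. It read 8.35 and 8.32 in Ptc+/- GNPs, 8.48 and 8.24 on the Gli1-FLAG arrays and 9.29, 9.07, 9.74 and 9.61 in tumours. Tumours 3 and 4 were highest, and every tumour exceeded every precursor array. The rise was 1.09 ± 0.21 (2.13-fold; adjusted p = 0.0183), lost without Ptc+/- GNP replicate 1 (0.132) or 2 (0.0979). Cdh2 and Cdh4 thus moved in opposite directions on the same arrays.

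Cdh15 (transcript cluster 6979655), the M-cadherin gene of skeletal muscle precursors and cerebellar granule cells, read 7.61 and 7.77 in Ptc+/- GNPs, 7.71 and 7.80 on the Gli1-FLAG arrays and 8.10, 8.75, 8.55 and 8.64 in tumours. Tumour 1 lay nearest to the precursors. The rise was 0.82 ± 0.20 (adjusted p = 0.0354). Of the 8 settings that left out 1 array, it passed only without medulloblastoma 1 (adjusted p = 0.022). The highest adjusted p was 0.221, without Ptc+/- GNP replicate 1.

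Cdh1, the E-cadherin gene of epithelia, lay between 5.19 and 5.85 on all arrays and differed by -0.21 ± 0.19 (adjusted p = 0.481). Cdh3, the P-cadherin gene, read 4.73 and 4.83 in Ptc+/- GNPs, 4.68, 4.77, 5.06 and 4.63 in tumours, and 5.45 and 5.63 on the Gli1-FLAG arrays. Both Gli1-FLAG arrays lay above all others, by a small margin over background. Tumours and Ptc+/- GNPs overlapped (0.01 ± 0.17; adjusted p = 0.981).

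None of the 5 cadherins outside both classical types passed. Cdh13, whose product lacks a cytoplasmic tail and is anchored by lipid, read 6.70 and 6.91 in Ptc+/- GNPs, 7.24 and 7.09 on the Gli1-FLAG arrays and 6.90, 6.69, 6.15 and 7.44 in tumours (-0.01 ± 0.32; adjusted p = 0.981). The tumours spanned both precursor groups. Cdh26 differed by -0.12 ± 0.35. Cdh16, known from kidney, read 5.40 and 5.70 in Ptc+/- GNPs, 5.41 and 5.72 on the Gli1-FLAG arrays and 5.81, 6.17, 6.23 and 6.05 in tumours (0.52 ± 0.19; adjusted p = 0.0988). Its tumours did not overlap the precursors. Cdh17, known from liver and intestine, lay at 2.49 to 4.02, under the background level on every array, and Cdh23, a hair cell tip link gene, lay at 4.35 to 4.79. With arrays centred on their medians these dim members Cdh16, Cdh17 and Cdh23 passed as rises (adjusted p = 0.033, 0.0386 and 0.0485), so their calls depend on the scaling.

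**Figure D2:**
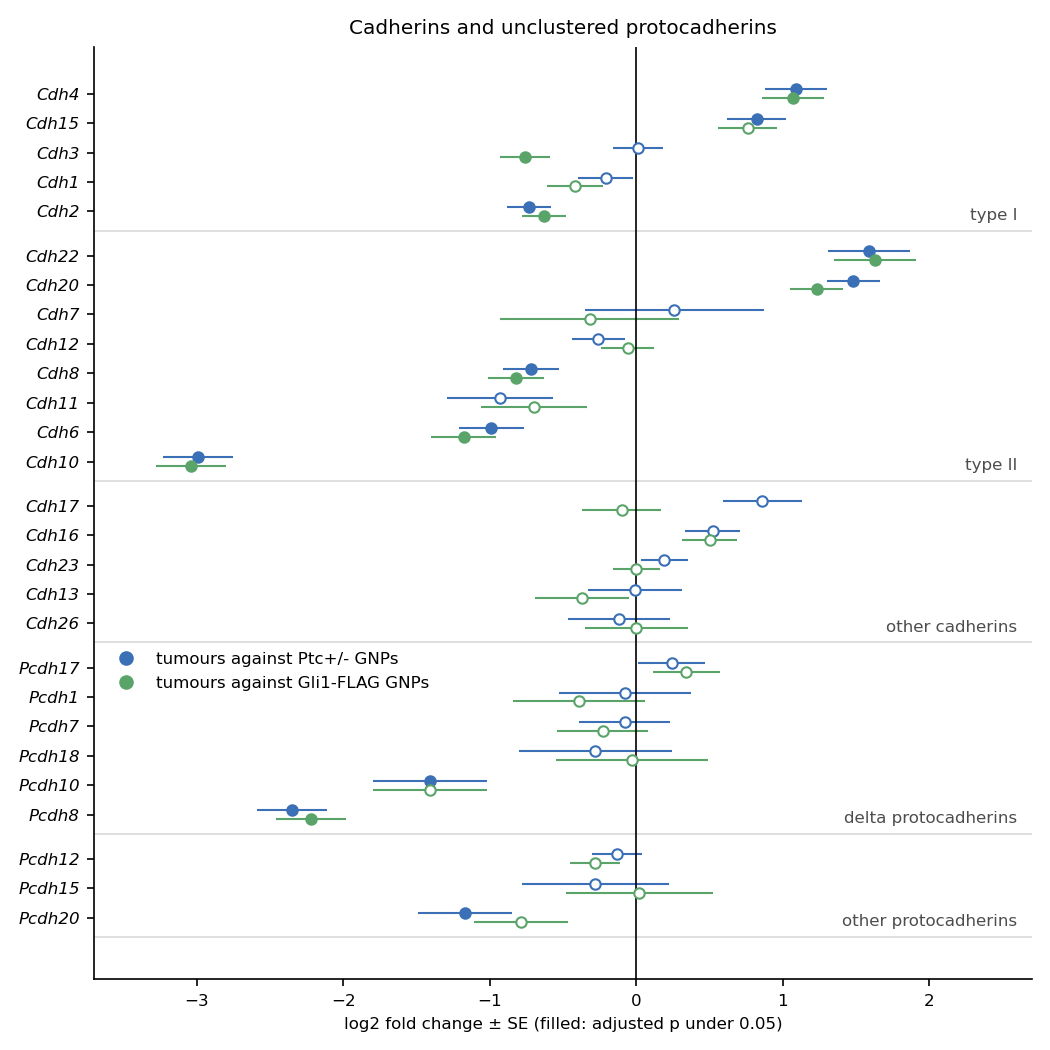
Log2 fold changes ± SE of the 27 members outside the beta cluster, in tumours against Ptc+/- GNPs (blue) and against Gli1-FLAG GNPs (green), by subfamily; filled points passed an adjusted p of 0.05. Cdh22 and Cdh20 lie farthest to the right, Cdh10 and Pcdh8 farthest to the left, and both comparisons use the same 4 tumours.

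Of the 9 protocadherins outside the clusters 0 rose against Ptc+/- GNPs, where 7.54% of all rows rose, so few or no rises would be found at that share. Of 6 delta protocadherins 2 fell, and of 3 others 1 fell, beside 8.92% of all rows. Pcdh8 (transcript cluster 6826292), which in rat neurons is induced by activity and removes N-cadherin from synapses, read 7.31 and 7.85 in Ptc+/- GNPs, 7.58 and 7.31 on the Gli1-FLAG arrays and 5.39, 5.43, 4.82 and 5.28 in tumours. The tumours lay together, near background and far below every precursor array. The fall was 2.35 on the log2 scale (SE 0.24; 5.09-fold; adjusted p = 0.0033), and it passed on leaving out each array in turn, with adjusted p of 0.00376 to 0.0298.

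Pcdh10 (transcript cluster 6897166), which acts in axon growth, read 8.41 and 8.25 in Ptc+/- GNPs, 8.28 and 8.39 on the Gli1-FLAG arrays and 6.60, 7.10, 6.23 and 7.76 in tumours. Precursors were tight, while tumours spread over 1.53 log2 units, with tumour 4 nearest to the precursors. The fall was 1.41 (SE 0.39; adjusted p = 0.0468). It passed without medulloblastoma 4 (adjusted p = 0.0132) and in none of the other 7 settings that left out 1 array (0.0552 to 0.236).

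Pcdh20 (transcript cluster 6826611) read 7.20 and 7.02 in Ptc+/- GNPs, 6.59 and 6.88 on the Gli1-FLAG arrays and 6.06, 6.32, 5.17 and 6.20 in tumours. Tumour 3 was lowest, and the Gli1-FLAG arrays lay between. The fall was 1.17 (SE 0.32; adjusted p = 0.0465), lost without either Ptc+/- array (0.249 and 0.155), either Gli1-FLAG array (0.0816 and 0.0815) or medulloblastoma 1 (0.0808). Centring each array on its median also ended it (0.0627).

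Pcdh17, which acts at synapses of the basal ganglia circuit in mouse, read 9.33 and 9.23 in Ptc+/- GNPs, 9.07 and 9.28 on the Gli1-FLAG arrays and 9.05, 9.63, 9.87 and 9.51 in tumours, with overlap (0.24 ± 0.23; adjusted p = 0.521). Pcdh7 differed by -0.08 ± 0.31, Pcdh1 by -0.08 ± 0.45 and Pcdh18 by -0.28 ± 0.52. Pcdh12, a protocadherin of endothelium, read 7.33 and 7.09 in Ptc+/- GNPs, 7.33 and 7.39 on the Gli1-FLAG arrays and 6.84, 7.22, 7.05 and 7.21 in tumours, which overlapped the Ptc+/- arrays (-0.13 ± 0.17; adjusted p = 0.633). Among 10 endothelial markers 6 fell and 0 rose in the same comparison, where 8.92% of all rows fell, and none was at 0. The 4 that did not pass were Flt1 (-0.11), Ramp2 (-0.28), Egfl7 (-0.51) and Emcn (-0.83). The part of endothelial cells in the Pcdh12 values was not tested. The summed intensity of the 10 markers was 4698 and 1916 in Ptc+/- GNPs 1 and 2, 3058 and 3047 on the Gli1-FLAG arrays and 909 to 1455 in tumours. Pcdh15, the partner of Cdh23 in hair cells and a gene of oligodendrocyte precursors, differed by -0.28 ± 0.50.

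Several members differed widely among the tumours. The median SD of all 49 members was 0.395 over the 4 tumours, 0.141 over the 2 Ptc+/- arrays and 0.127 over the 2 Gli1-FLAG arrays. Over all rows it was 0.299, 0.14 and 0.09. An SD from 2 arrays is less certain than one from 4. Cdh7 read 6.79, 7.88, 7.58 and 5.50 in tumours 1 to 4, a 5.2-fold range, beside 6.64 and 6.71 in Ptc+/- GNPs and 7.48 and 7.02 on the Gli1-FLAG arrays. Pcdh1 read 6.62, 7.87, 7.33 and 6.10. Both genes were highest in tumour 2 and lowest in tumour 4. Cdh22, Cdh10, Cdh8 and Cdh1 had the same extremes over narrower ranges. Cdh7 and Pcdh1 were picked for this description after their values were seen. The summed intensity of 8 markers of mature granule neurons followed the order of Cdh7 and Pcdh1 among tumours, at 6547, 11571, 8502 and 3885. Of these markers 0 of 8 passed the threshold, and only Syt1 had that full order by itself. The sum was 9269 and 8966 in Ptc+/- GNPs and 8712 and 8998 on the Gli1-FLAG arrays. The order did not extend to precursors, since both Ptc+/- arrays exceeded tumour 3 in this sum and lay below it for Cdh7. The sum of 5 Purkinje cell markers, 1624, 4225, 601 and 483 in tumours 1 to 4, was also highest in tumour 2 and lowest in tumour 4. The part of either list in the Cdh7 and Pcdh1 values was not tested.

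Another set was highest in tumour 4 and lowest in tumour 3. Pcdh18 read 8.35, 7.53, 6.96 and 8.99 in tumours 1 to 4. Pcdh15 read 6.36, 5.83, 5.66 and 7.62, and Cdh13 read 6.90, 6.69, 6.15 and 7.44. Pcdh10 and Cdh11, given above, had the same extremes. These genes were picked for this description after their values were seen. Across 6 measured markers of astrocytes and Bergmann glia, the summed intensity was 1923, 3100, 272 and 3946 in tumours 1 to 4, lowest and highest in the same tumours. Each of these markers was lowest in tumour 3. Only Fabp7 (10.91 in tumour 4) and S100b (9.98) were highest in tumour 4, whereas Gfap, Aqp4, Aldh1l1 and Gdf10 were highest in tumour 2. It was 4583 and 3276 in Ptc+/- GNPs and 4961 and 5402 on the Gli1-FLAG arrays. None of the 6 passed the threshold, and none was at 0. The sum of 9 microglial markers, 7010, 4589, 3446 and 8118 in tumours 1 to 4, had the same extremes. Its full order among tumours was that of Pcdh18, Pcdh15 and Cdh13. The deposited median intensities of the tumour arrays, 170, 186, 134 and 310, also had these extremes. The part of either list or of array intensity in the members' values was not tested.

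**Figure D3:**
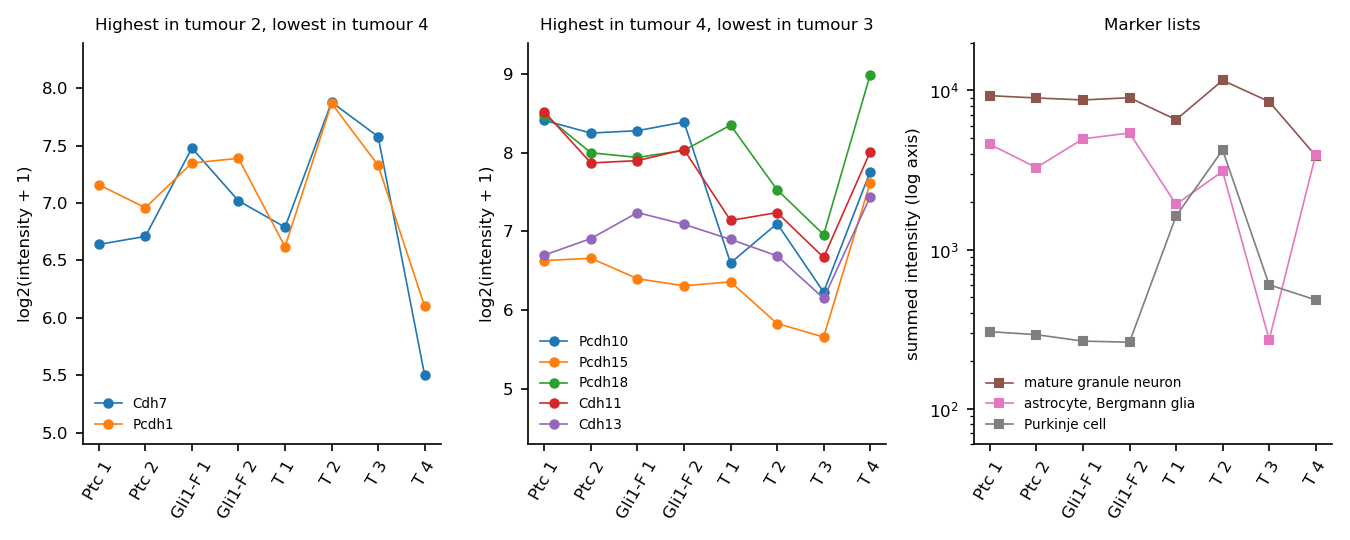
Log2(intensity + 1) on each array for some of the members highest in tumour 2 and lowest in tumour 4 (left). The middle part shows some of those highest in tumour 4 and lowest in tumour 3. Summed intensities of 3 marker lists are on a log axis (right). T marks tumours, Gli1-F marks Gli1-FLAG GNPs, and lines only join the arrays of a gene or list. Cdh7 spans 5.50 to 7.88 across the tumours, and the astrocyte and Bergmann glia list drops to 272 in tumour 3.

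The beta protocadherin genes are neighbours in 1 array of single-exon genes and are close in sequence. Probe positions are not known here, so reads of 1 gene by the probes of another cannot be told apart, and single genes of the cluster are uncertain. Of the 22, 1 fell, 0 rose and 21 did not pass (4.55% called), with a median log2 fold change of -0.07 against Ptc+/- GNPs (0.04 with arrays centred on their medians). The 1 that fell was Pcdhb22, the last of the series (transcript cluster 6860211). It read 7.45 and 6.97 in Ptc+/- GNPs, 6.89 and 6.92 on the Gli1-FLAG arrays and 6.41, 5.92, 6.27 and 5.90 in tumours. Every tumour lay below every precursor array. The fall was 1.08 (SE 0.22; adjusted p = 0.0191), lost without Ptc+/- GNP replicate 1 (0.168) or 2 (0.0556).

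Pcdhb19 read 7.73 and 7.32 in Ptc+/- GNPs, 7.22 and 7.29 on the Gli1-FLAG arrays and 6.68, 6.05, 7.13 and 6.35 in tumours, without overlap. It missed the threshold (-0.98 ± 0.30; adjusted p = 0.0628), but passed with cyclic loess (0.0342). At the other end of the changes, Pcdhb6 read 6.85 and 6.88 in Ptc+/- GNPs and 7.55, 7.39, 8.10 and 6.92 in tumours (0.63 ± 0.31; adjusted p = 0.207). Pcdhb2 differed by 0.50 ± 0.34. Pcdhb16 read 8.38 and 7.85 in Ptc+/- GNPs, 7.82 and 7.59 on the Gli1-FLAG arrays and 8.14, 7.81, 8.79 and 7.84 in tumours. The groups overlapped (0.03 ± 0.31).

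Fold changes drifted along the cluster. Across the 22 genes, Spearman's correlation between gene number and the log2 fold change in tumours against Ptc+/- GNPs was -0.62. Of the first 11 genes 7 had a positive fold change (median 0.10), and of the last 11, 3 did (median -0.34). Taken tumour by tumour, against the mean of the same Ptc+/- arrays, the correlation was -0.53, -0.33, -0.55 and -0.55. For the fold changes against Gli1-FLAG GNPs the correlation was -0.50. There 8 of the first 11 genes had a positive fold change (median 0.33), and so did 6 of the last 11 (median 0.01). The median over all 22 was 0.12 in that comparison, so a negative median of the last 11 was seen only against Ptc+/- GNPs. Among these last 11, the genes lower in tumours against Gli1-FLAG GNPs were Pcdhb17 (-0.41), Pcdhb19 (-0.71), Pcdhb20 (-0.16), Pcdhb21 (-0.53) and Pcdhb22 (-0.78). These genes share arrays, controls and possibly probes, so the correlations are a description over genes.

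Tumour 3 stood out within the cluster. It was the highest of the 4 tumours for 17 of 22 genes, and tumour 2 was the lowest for 12. The median over the cluster was 7.66 in tumour 3, 7.20 in tumour 1, 6.75 in tumour 2 and 7.08 in tumour 4, beside 7.39 and 7.10 in Ptc+/- GNPs and 7.10 and 6.94 on the Gli1-FLAG arrays. Tumour 3 exceeded both Ptc+/- arrays for 14 genes and lay below both for 3, and tumour 2 did so for 5 and 15. The widest range was that of Pcdhb5, at 6.55, 5.43, 7.91 and 6.30 in tumours 1 to 4, or 5.59-fold. Pcdhb12 read 6.38, 6.03, 8.12 and 6.61, and Pcdhb8 read 7.09, 6.46, 7.86 and 5.61. In all 3, tumour 3 was highest, and the precursors lay between the tumours' extremes.

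**Figure D4:**
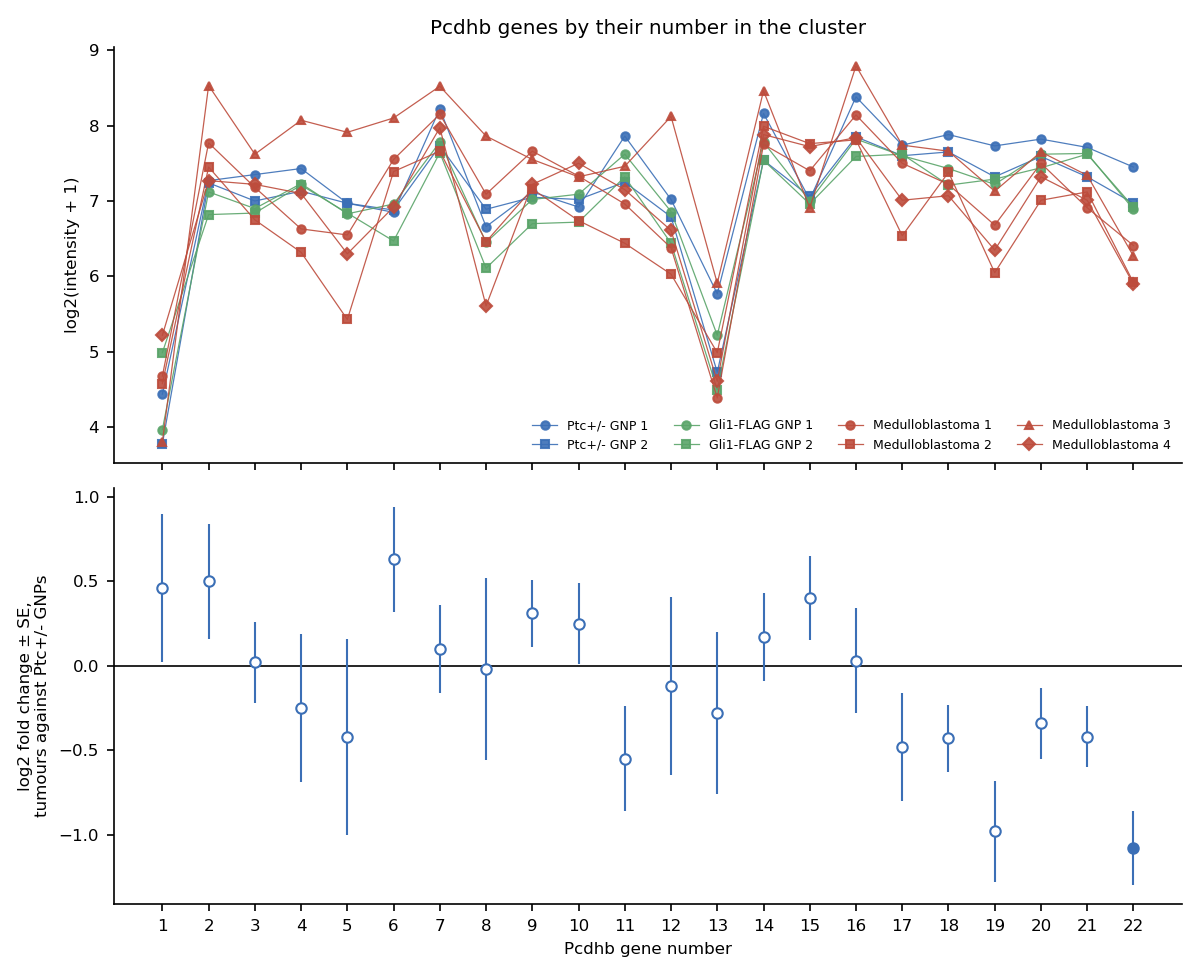
Upper part, log2(intensity + 1) of the 22 beta protocadherin genes on each array by gene number; lower part, log2 fold change ± SE in tumours against Ptc+/- GNPs, filled where the adjusted p was under 0.05. Tumour 3 (triangles) is highest of the tumours for 17 of 22 genes, fold changes of genes 17 to 22 lie under 0, and Pcdhb22 alone passed.

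The comparison of both GNP groups asks how precursors with tagged Gli1 differ from those with 1 targeted Ptch1 allele. Of 49 members 0 passed in limma's fit, as did 0 of 16317 rows (0%). At an unadjusted p under 0.05 there were 2 members, Cdh3 and Cdh17, and 525 rows (3.22%). Member log2 fold changes ran from -0.50 to 0.96, the latter for Cdh17, which lay under background, and 46 of 49 were under 0.5 in size. Cdh3 had the lowest unadjusted p, for a difference of 0.77 ± 0.19, and its adjusted p was 1. Its level is given above. The SE of a member's difference had a median of 0.30, so small differences could not be resolved with these arrays. Both Gli1-FLAG arrays lay outside the Ptc+/- range for 22 of 49 members (44.9%), beside 46.3% of all rows. In the beta cluster 20 of 22 genes had a negative fold change, with a median of -0.21, beside 0 for all rows. The cluster's median was 7.39 and 7.10 in Ptc+/- GNPs and 7.10 and 6.94 on the Gli1-FLAG arrays. Ptc+/- replicate 2 and Gli1-FLAG array 1 were thus level. These genes share arrays and possibly probes, so they are not separate replicates of the comparison.

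Tumours were also compared with Gli1-FLAG GNPs, which carry the same tagged Gli1. Because both tumour comparisons share the 4 tumours, their values are set side by side and are not independent. Here 9 of 49 members passed, 3 up and 6 down (18.4%), where 10.3% of all rows passed (4.65% up and 5.63% down). Cdh10 differed by -3.04 ± 0.24 (adjusted p = 0.00122), Pcdh8 by -2.22 ± 0.24 (0.00436), Cdh20 by 1.23 ± 0.18 (0.0112), Cdh22 by 1.63 ± 0.28 (0.0171) and Cdh6 by -1.18 ± 0.22 (0.0218). Cdh4 (1.07), Cdh8 (-0.82) and Cdh2 (-0.63) passed as well. Cdh3 passed in this comparison (-0.76 ± 0.17; adjusted p = 0.0346), at levels near background, and did not pass with arrays centred on their medians (0.209). Cdh15 (0.76; adjusted p = 0.058), Pcdh10 (-1.41; 0.0602), Pcdhb22 (-0.78; 0.0621) and Pcdh20 (-0.79; 0.156) did not pass. The 8 members past the threshold in both comparisons were 66.7% of the first list and 88.9% of the second. Without Gli1-FLAG GNP replicate 1 or 2, 1 member passed, Cdh10, while all rows called dropped from 1677 to 62 and 71. Without Ptc+/- GNP replicate 1 or 2, 5 members and 838 or 821 rows passed. When only tumours and Gli1-FLAG GNPs were fitted, 5 members and 811 rows did.

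**Figure D5:**
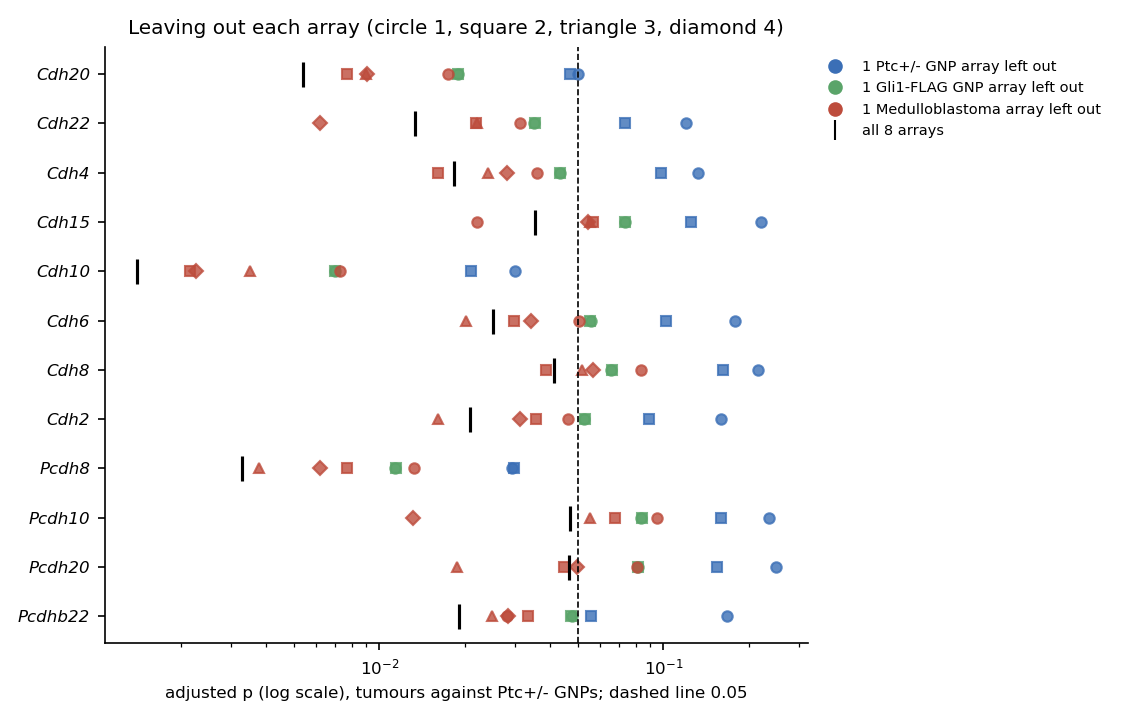
Adjusted p (log axis) of the 12 called members in tumours against Ptc+/- GNPs with all 8 arrays (bar) and with each array left out (symbols, colour by group); the dashed line marks 0.05. Cdh10 and Pcdh8 stay left of the line in all 8 settings, and for the other 10 at least 1 Ptc+/- GNP array moves them to it or past it.

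Partners of the cadherins were read from lists drawn up for this work with earlier results of these data known. Of all rows 16.5% passed against Ptc+/- GNPs (7.54% up and 8.92% down) and 10.3% against Gli1-FLAG GNPs. Of 13 measured catenins and junction partners, 5 fell, 0 rose and 8 did not pass against Ptc+/- GNPs (median -0.28). Ctnna1, which encodes the epithelial-type alpha-catenin, read 9.30 and 9.02 in Ptc+/- GNPs and 7.90, 7.80, 8.29 and 8.67 in tumours, below all of the precursors (2-fold lower; SE 0.26 on the log2 scale; adjusted p = 0.0391). Plekha7, a junction protein gene (-0.82; adjusted p = 0.0128), Ctnnal1, an alpha-catenin-like gene (-0.79; 0.0202), Ctnnd1, the p120-catenin gene (-0.75; 0.0301), and Vcl, the vinculin gene (-0.80; 0.0369), fell too. Beta-catenin, encoded by Ctnnb1, read 11.52 and 11.33 in Ptc+/- GNPs and 11.21, 11.20, 10.93 and 11.24 in tumours (-0.28; adjusted p = 0.241). The neural alpha-catenin gene Ctnna2 differed by -0.06. Against Gli1-FLAG GNPs 1 of the 13 passed, Ctnnal1 (-0.73; adjusted p = 0.0339).

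Of 5 measured nectin and Cadm genes, whose products are immunoglobulin-type adhesion proteins that work beside cadherins, 3 rose, 1 fell and 1 did not pass in both tumour comparisons. Nectin1 read 7.70 and 8.01 in Ptc+/- GNPs, 7.83 and 7.89 on the Gli1-FLAG arrays and 8.71, 8.99, 8.99 and 9.29 in tumours (1.14; adjusted p = 0.0126). Nectin3, whose product pairs with that of Nectin1, read 9.21 and 9.05, then 9.32 and 9.22, and 7.45, 7.31, 8.67 and 7.62 in tumours (-1.36; adjusted p = 0.0426). Cadm1 (0.86) and Cadm4 (0.82) rose. With arrays centred on their medians, 3 rose and 1 fell against Ptc+/- GNPs, and 2 rose and 1 fell against Gli1-FLAG GNPs.

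Among 9 transcription factor genes known as cadherin repressors or their relatives, 1 rose against Ptc+/- GNPs, Twist2 (1.14; adjusted p = 0.0134), and 8 did not pass, with Zeb1 at 0.46 and Snai1 at 0.98. Against Gli1-FLAG GNPs 0 of the 9 passed in limma's fit, with 4 at an unadjusted p under 0.05 and Twist2 at 0.76 (adjusted p = 0.0529). Of 9 genes for cadherin cleavage and phosphorylation 2 fell against Ptc+/- GNPs, Ptprk, a receptor phosphatase gene (-1.36; adjusted p = 0.0166), and Adam10, which encodes the protease that cuts N-cadherin (-0.68; adjusted p = 0.0479). Against Gli1-FLAG GNPs 1 of the 9 fell, Ptprk (-1.20; adjusted p = 0.0319). Of 13 genes for regulators of protocadherin promoters 3 fell against Ptc+/- GNPs: Ctcf, encoding the insulator protein that binds clustered protocadherin promoters (-0.72; adjusted p = 0.0202), Wapl, which releases cohesin (-0.61; 0.0264), and Dnmt3b, a DNA methyltransferase gene (-0.66; 0.0365). These 3 were 23.1% of their list, and the 2 genes for cleavage and phosphorylation 22.2% of theirs. Of all rows 16.5% passed in that comparison, 8.92% as falls. Against Gli1-FLAG GNPs 0 of the 13 passed, with 3 at an unadjusted p under 0.05 and a Ctcf difference of -0.30.

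Some markers of other cell types also differed between tumours and precursors. Of 9 microglial markers 4 rose in both tumour comparisons (C1qa, C1qb, C1qc and Cd68), and 5 did not pass. Against Ptc+/- GNPs Aif1 was at 1.41, Tyrobp at 1.58, Cx3cr1 at 0.70, Csf1r at -0.12 and Itgam at -0.33. For Itgam every tumour lay below every precursor array. The summed intensity of the 9 was 1884 and 1593 in Ptc+/- GNPs, 2024 and 1772 on the Gli1-FLAG arrays and 3446 to 8118 in tumours. Of 5 Purkinje cell markers 0 passed against either GNP group (at an unadjusted p under 0.05, 0 against Ptc+/- and 1 against Gli1-FLAG GNPs), and their sum was 305 and 292, then 266 and 262, and 483 to 4225, highest in tumours 1 and 2. Of 7 oligodendrocyte lineage markers 2 rose in both tumour comparisons, Olig1 and Olig2, and 5 did not pass. Against Ptc+/- GNPs Cspg4 was at 0.92, Mbp at -0.49, Mag at -2.03, Mog at -1.05 and Cnp at -1.18, and the list's median was -0.49 (-1.34 against Gli1-FLAG GNPs). Its sums were 1732 and 1781, then 2763 and 2925, and 960 to 4447. Of 8 interneuron markers 1 rose (Pvalb) and 2 fell (Pax2 and Lhx5) against Ptc+/- GNPs, and 0 rose and 2 fell against Gli1-FLAG GNPs, with sums of 2328 and 2265, then 2000 and 2016, and 1384 to 4672. No marker in these lists was at 0. Their part in the changes of the cadherins was not tested.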

How the data were processed

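Total RNA was labelled with Affymetrix whole-transcript kits, per the labels' protocols. The deposited table holds 1 linear intensity per transcript cluster, in whole numbers, for 16317 rows on 8 arrays; how the authors summarised probes or corrected background is not given in the sources used here. The submitters' processing notes name build mm8. Array medians differed 2.84-fold, so intensities were quantile normalized, 1 value under 0 was set to 0, and log2(intensity + 1) was tested. Fold changes are on that scale, which understates those of dim genes. Rows were named through the platform annotation; 14551 have 1 symbol. All rows were fitted at once, with a mean for each of the 3 groups, in limma 3.58.1 (lmFit, eBayes, two-sided, Benjamini-Hochberg over all rows) in R 4.3.3 and tested on simulated data. The 3 comparisons are not independent. Members, partner and marker lists, tests and alternatives were chosen with earlier results of these data known. Called members and the member with the highest mean in each subfamily are given in full, and up to 3 genes per partner list by lowest p, with others named beside them after their values were seen. Promoter windows come from RefSeq (GRCm38.p6). The number of arrays limits the precision.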

Additional observations from a re-analysis of the deposited data

How the results depend on the processing

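No called member value changed direction under any of the 17 alternative settings run. With only the arrays of the groups compared, 1197 rows and 6 members passed for tumours against Ptc+/- GNPs, 811 rows and 5 members for tumours against Gli1-FLAG GNPs, and 4 rows for the GNP groups. A fit with a replicate block leaves medulloblastomas 3 and 4 unused; its counts were 2019 rows and 10 members, 1066 rows and 5 members, and 1 row. The numbers do not pair the samples: deviations of same-numbered samples correlated at -0.073 to 0.009. With array weights per group 3566 rows passed against Gli1-FLAG GNPs and 3 between the GNP groups, where cyclic loess gave 1 and eBayes with trend and robust settings gave 1. Leaving out 1 array gave 128 to 2898 rows and 2 to 11 members against Ptc+/- GNPs, 62 to 1980 rows and 1 to 9 members against Gli1-FLAG GNPs, and 0 to 4 rows and 0 members between the GNP groups. With 1 array left in a group, that array is assumed to vary like the others. With arrays centred on their medians, rows split into 1713 up and 1352 down against Ptc+/- GNPs, beside 1231 and 1456. Over all members and comparisons, 99 values lost and 28 gained a call. The causes were not tested. Without detection p-values, members near background have uncertain folds.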

Other observations

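Of 13 measured genes of the wider cadherin superfamily outside the members (Celsr, calsyntenin, Ret and desmosomal genes), 1 fell and 12 did not pass in each tumour comparison. Celsr1, which encodes a large cadherin of planar cell polarity, read 7.88 and 7.79 in Ptc+/- GNPs, 7.64 and 7.65 on the Gli1-FLAG arrays and 5.64, 5.77, 5.54 and 6.85 in tumours (log2 fold change -1.89 against Ptc+/- GNPs; adjusted p = 0.0169). Every tumour lay below every precursor array, with tumour 4 nearest. Its relatives Celsr2 (0.18) and Celsr3 (0.13) did not pass. Clstn3, a calsyntenin gene of synapses, read 7.88, 9.99, 8.56 and 6.78 in tumours 1 to 4, the same order as Cdh7 and Pcdh1. The list's median was -0.10, and 0.18 with arrays centred on their medians.

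Of 9 genes for cytoplasmic or signalling partners of protocadherins and their neighbours, 1 rose and 1 fell against Ptc+/- GNPs (22.2%, beside 16.5% of all rows). The kinase gene Ptk2b rose (0.82; adjusted p = 0.0264), and Nckap1, which encodes a part of the complex that drives actin branching and binds delta protocadherins, fell (-0.63; adjusted p = 0.0308). Against Gli1-FLAG GNPs Ptk2b rose (1.03; adjusted p = 0.0191) and the other 8 did not pass. Reln, the reelin gene, differed by -0.80 (adjusted p = 0.0788). Among the 49 members, no tumour stood apart from the other 3 by Dixon's test, a test that chance passes in about 1 of 20 groups.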
